A study of Homo sapiens with 26 samples.

Results

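Drug transporters of the SLCO and ABC families were followed through 26 RNA-seq libraries of 3 established human pancreatic ductal adenocarcinoma (PDAC) cell lines in which the nuclear receptor HNF4α had been raised or lowered. The set holds 10 genes, SLCO2B1, SLCO1B3, SLCO4A1, SLCO3A1, ABCB1, ABCC2, ABCC3, ABCC6, ABCG1 and ABCG2, out of 62778 gene identifiers in the 3 count tables. Each gene was found by its Ensembl identifier, 1 identifier per symbol. They were chosen by their levels and fold changes across the groups of these same libraries, so their levels and differences are given as a description, and an adjusted p quoted for one of them comes from the test of all genes and is no independent support.

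HNF4A is transcribed from 2 promoters, P1 and P2, which give isoforms with different first parts. Panc10.05 cells carried an inducible P1-a2 isoform (2 libraries, 25 ng/mL doxycycline), an inducible P2-a8 isoform (2 libraries, 12.5 ng/mL) or a GFP control called NC (2 libraries, 25 ng/mL). BxPC3 cells carried P1-a2, P2-a8 or an empty-vector control, also called NC, with 2 libraries each and 500 ng/mL doxycycline throughout. The controls of both lines thus received doxycycline as well. AsPC-1 cells (ASPC1 in the labels) carried CRISPR interference guides against the P1 promoter (sgP1, guides E and J), the P2 promoter (sgP2, guides D and G) or both (sgDual, guides 2 and 3), with 2 libraries per guide, or a control guide (sgNC, 2 libraries). Cell line, dose, control construct and sequencing project changed together, and within Panc10.05 the dose differed between the isoforms, so these cannot be told apart. The labels give neither the hours of induction nor whether the replicates were separate cultures or clones, so p-values measure the spread between these libraries, which may be technical.

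SLCO genes encode organic anion transporting polypeptides (OATPs), which take bile acids, steroid and thyroid hormone conjugates, prostaglandins and many drugs into cells. ABC transporters of the B, C and G subfamilies use ATP to move substrates outwards: drugs and their conjugates in the case of ABCB1 (P-glycoprotein), ABCC2 and ABCC3 (multidrug resistance proteins) and ABCG2 (breast cancer resistance protein), and cholesterol in the case of ABCG1. In liver and gut, where HNF4α is abundant, the same epithelial cell holds both uptake and efflux carriers.

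The start regions of the genes were read from RefSeq promoter windows on GRCh38.p14, which covered 7 of the 10 genes with 15 windows. The 250 bases before each start were searched on both strands for CAAAGTCCA, a core that HNF4 proteins are known to prefer, and 3 genes matched with at most 1 mismatch: SLCO2B1 exactly, and ABCC2 and ABCC6 with 1 mismatch. The stretches of these 3 genes are shown because they matched. Whether a match goes with any change in level was not tested. Each stretch runs 5′ to 3′ on the gene's strand and ends before the first exon that GENCODE v29 places in the window. Capitals mark the match, which lies on the opposite strand in all 3. The positions are chr11:75159582-75159779 (plus strand) for SLCO2B1, chr10:99782390-99782639 (plus strand) for ABCC2 and chr16:16223523-16223744 (minus strand) for ABCC6.
SLCO2B1: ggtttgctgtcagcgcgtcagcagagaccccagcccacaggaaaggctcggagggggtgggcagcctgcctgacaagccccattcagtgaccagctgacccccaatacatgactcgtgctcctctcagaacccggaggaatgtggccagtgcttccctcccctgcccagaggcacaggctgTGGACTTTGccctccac
ABCC2: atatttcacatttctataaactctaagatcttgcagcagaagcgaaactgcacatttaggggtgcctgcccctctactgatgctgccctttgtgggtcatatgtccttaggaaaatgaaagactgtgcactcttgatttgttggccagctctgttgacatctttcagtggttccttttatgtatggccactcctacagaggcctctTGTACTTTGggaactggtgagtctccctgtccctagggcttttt
ABCC6: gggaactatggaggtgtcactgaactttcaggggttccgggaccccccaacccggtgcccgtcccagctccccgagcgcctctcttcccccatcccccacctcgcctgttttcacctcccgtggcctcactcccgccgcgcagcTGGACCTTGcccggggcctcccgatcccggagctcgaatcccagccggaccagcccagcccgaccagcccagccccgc

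An exact CAAAGTCCA stood in 0.325% of all 35116 windows of that length, and a match with at most 1 mismatch in 5.94%. The SLCO2B1 match began 69 bases before the start of 1 of its 2 windows, which lies inside the gene as GENCODE v29 draws it, and the other window held none. The ABCC2 match began 44 bases before its start, and the ABCC6 match 106 or 129 bases before, depending on which of its 2 windows was used. Of the genes with a window, SLCO1B3, SLCO3A1, ABCB1 and ABCG2 had no such match. Of 9 searches in all, 4 matched no window of the set: CAAAGTTCA, the antioxidant core TGACNNNGC (both exact), and the nuclear receptor direct repeat with 1 spacer base and the HNF1 palindrome (each with at most 2 mismatches). The short cores CCGCCC (SLCO3A1 and ABCG2) and CAAAG (SLCO2B1, ABCB1, ABCC2 and ABCG2) stood in 42.6% and 42.1% of all windows. CAAAG is part of the longer core, so these searches overlap. A direct repeat with 4 spacer bases matched ABCC2 with 3 mismatches, as in 12.5% of all windows. A match is a description of letters, not a binding site or a cause, and the absence of one says only that these letters are not in this window. SLCO4A1, ABCC3 and ABCG1 had no window and were not searched.

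Each Panc10.05 library summed to between 34618745 and 46827673 counts, each BxPC3 library to between 26369154 and 37483772, and each AsPC-1 library to between 26079388 and 50662077. Levels are given below as CPM, a gene's count over the library total after TMM scaling (trimmed mean of M-values). The tables were scaled separately, so levels of different lines are set side by side without a test. HNF4A itself averaged 0.149 CPM in Panc10.05 NC, 11.8 with P1-a2 and 37.6 with P2-a8. In BxPC3 it averaged 0.771, 10.7 and 13.4 CPM in the same order. In AsPC-1 it averaged 213 CPM with sgNC, 129 with sgP1, 86.5 with sgP2 and 7.99 with sgDual. Only the sgDual difference from sgNC passed the threshold of an adjusted p of 0.05 among the 3 repressions, at -4.73 on the log2 scale. Yet every sgP1 library (109 to 146 CPM) and every sgP2 library (76.7 to 93.9) lay below both sgNC libraries (206 and 220). By guide, the log2 fold changes were -0.55 (sgP1E), -0.90 (sgP1J), -1.20 (sgP2D) and -1.40 (sgP2G), none past the threshold. The shared error includes the sgDual libraries, which ran from 3.19 to 13.6 CPM. How much HNF4A RNA came from the construct and how much from the gene was not tested. The 8 epithelial markers fixed for ductal carcinoma summed to 5932 CPM or more in every library, while KRT7, one of them, lay between 0.503 and 8.47 CPM in AsPC-1. In Panc10.05 their sum was 5932 to 5991 CPM with NC, 7693 to 8761 with P1-a2 and 9738 to 10229 with P2-a8. In BxPC3 it was 7781 to 8034, 10327 to 11038 and 9019 to 9199 in the same order. In AsPC-1 it was 14362 to 14650 with sgNC, 8336 to 18108 with sgP1, 10240 to 11733 with sgP2 and 11366 to 16031 with sgDual. The sum follows the most abundant markers. With P1-a2 against NC in Panc10.05, 3 of the 8 were higher and 4 lower past the threshold (median log2 fold change -0.05). Of all genes, 31.5% were higher and 30.5% lower there. With P2-a8, 8 were higher and 0 lower, beside 23.7% and 22.5% of all genes. The 4 hepatocyte markers summed to 45.5 to 47.3 CPM with Panc10.05 NC, 18.6 to 22.2 with P1-a2 and 39.8 to 41.2 with P2-a8. The BxPC3 sums were 0.656 to 1.08, 5.40 to 5.76 and 13.6 to 14.6 in the same order. TTR was at 0 in every library of both lines. The Panc10.05 sums were nearly all SERPINA1, at 18.6 to 47.3 CPM, beside at most 0.141 for ALB and 0.0435 for CYP3A4. SERPINA1 ran from 0.164 to 14.3 CPM in BxPC3, beside at most 0.0546 for ALB and 0.818 for CYP3A4. The shifts in these sums are thus mainly those of SERPINA1. Acinar markers summed to at most 1.12 CPM and endocrine markers to at most 0.149. Leukocyte markers summed to at most 9.86 CPM, fibroblast markers to at most 12.5 and endothelium markers to at most 9.12. The part of these shifts in the transporter values was not tested. In bulk RNA, fewer cells that express a gene and less of its RNA per cell cannot be told apart.

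The control groups of the 3 lines, which carried a control construct or guide, differed in which carriers they held. Per kilobase of exon, the scale on which different genes can be compared, SLCO4A1 led in Panc10.05 NC at 12.5 ± 0.156 CPM per kb (SD, n = 2), followed by SLCO1B3 at 2.32 ± 0.228 and ABCC3 at 1.99 ± 0.0820. In BxPC3 NC, ABCC3 (5.73 ± 0.316), SLCO3A1 (5.49 ± 0.0710) and SLCO1B3 (4.22 ± 0.489 CPM per kb) led, and the first 2 differed by less than the spread of ABCC3. In AsPC-1 sgNC, SLCO4A1 (35.9 ± 4.06), ABCG2 (32.0 ± 4.56), ABCC2 (30.3 ± 3.01) and ABCC3 (23.4 ± 3.01 CPM per kb) led. SLCO4A1 and ABCG2, and likewise ABCG2 and ABCC2, lay within 1 SD of each other, and ABCC3 lay below ABCC2 by more than 1 SD. SLCO2B1, ABCC6 and ABCG2 were low in the controls of Panc10.05, at 0.00396, 0 and 0.0568 CPM per kb. All genes of the set but SLCO1B3 and SLCO3A1, and also HNF4A, had their highest control level in AsPC-1.

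**Figure D1:**
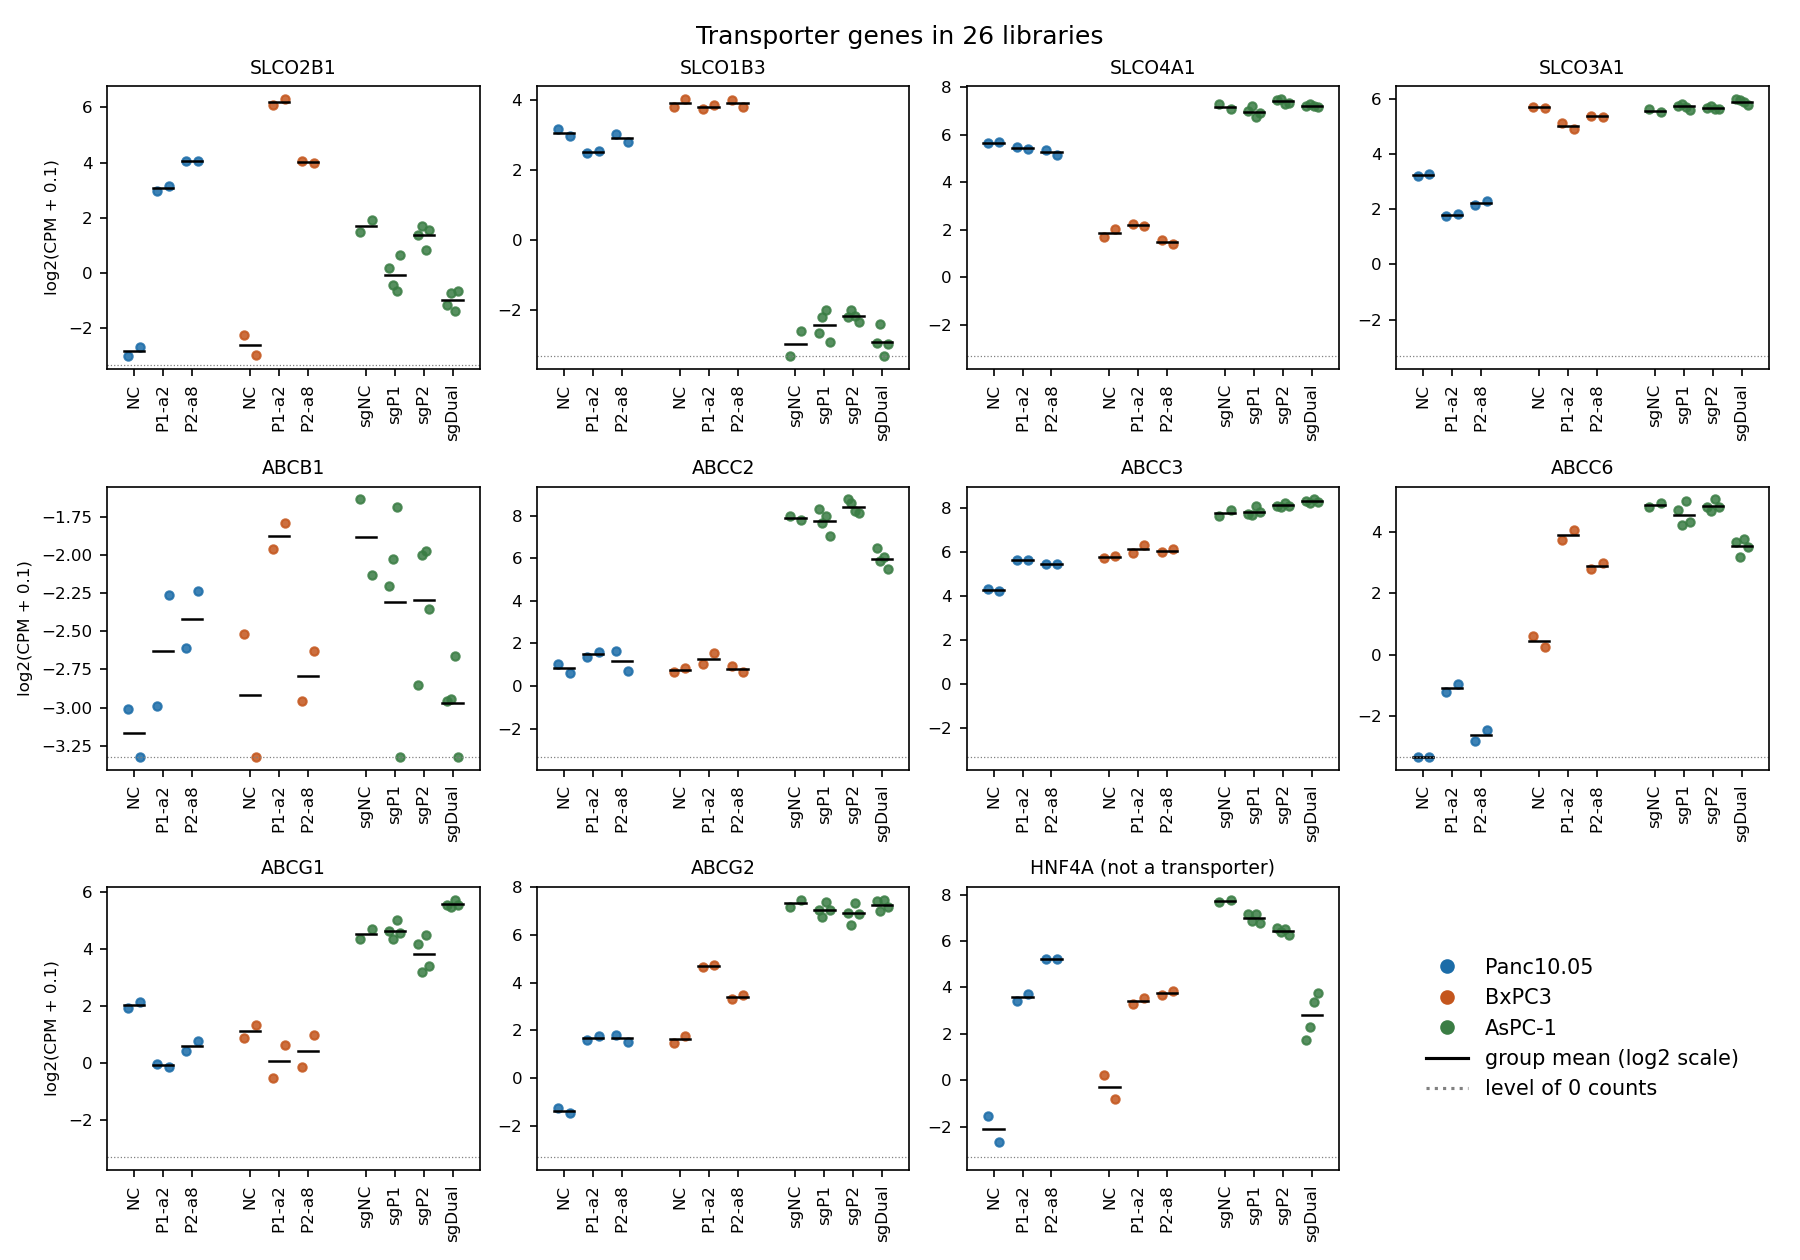
Level of each of the 10 transporter genes and of HNF4A in the 26 libraries, as log2(CPM + 0.1), by line (colour) and group (horizontal axis); each point is 1 library, bars are group means of the plotted values, and the dotted line is the level of 0 counts. SLCO2B1 lies near the dotted line in both NC groups and far above it with either isoform, and it is lowest in AsPC-1 with sgDual.

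All genes of the set but ABCB1, 9 in number, had enough counts to be tested in Panc10.05 and BxPC3, and 8, all but ABCB1 and SLCO1B3, in AsPC-1. The test was edgeR's quasi-likelihood F test with Benjamini-Hochberg adjustment over all genes of a table. In Panc10.05, P1-a2 against NC gave 5 higher and 4 lower of 9, where 62% of all 17247 genes tested passed (31.5% higher, 30.5% lower). P2-a8 against NC gave 3 higher and 3 lower, where 46.2% passed (23.7% higher, 22.5% lower). In BxPC3, P1-a2 against NC gave 4 higher and 1 lower of 9, where 32% of 17635 genes passed (17.1% higher, 14.9% lower). P2-a8 against NC gave 3 higher and 1 lower, where 6.99% passed (4.3% higher, 2.69% lower). In AsPC-1, sgP1 against sgNC gave 1 lower of 8, where 0.265% of 16992 genes passed (0.1% higher, 0.165% lower). Each AsPC-1 repression group pools 2 guides with 2 libraries each as 1 condition, so differences between guides enter its error. Guides sgP1E and sgP1J differed in 14.5% of all genes, so the few sgP1 calls do not show that little changed. The sgDual guides against sgNC gave 3 higher and 3 lower, where 35.6% passed (17.8% in each direction). For sgP2 against sgNC 0 of 8 passed with edgeR and 0 with DESeq2, 1 had an unadjusted p under 0.05, and 3.42% of all genes passed (1.66% higher, 1.76% lower). Since these contrasts chose the genes, nothing is read from the shares, and the isoforms of a line share their NC libraries just as the 3 repressions share sgNC. The median log2 fold change of the tested genes of the set was 0.66 and 0.44 in Panc10.05, 0.37 and 0.06 in BxPC3 (P1-a2, then P2-a8) and -0.15, 0.03 and -0.01 in AsPC-1 (sgP1, sgP2, sgDual), beside medians of all genes between -0.01 and 0.02.

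**Figure D2:**
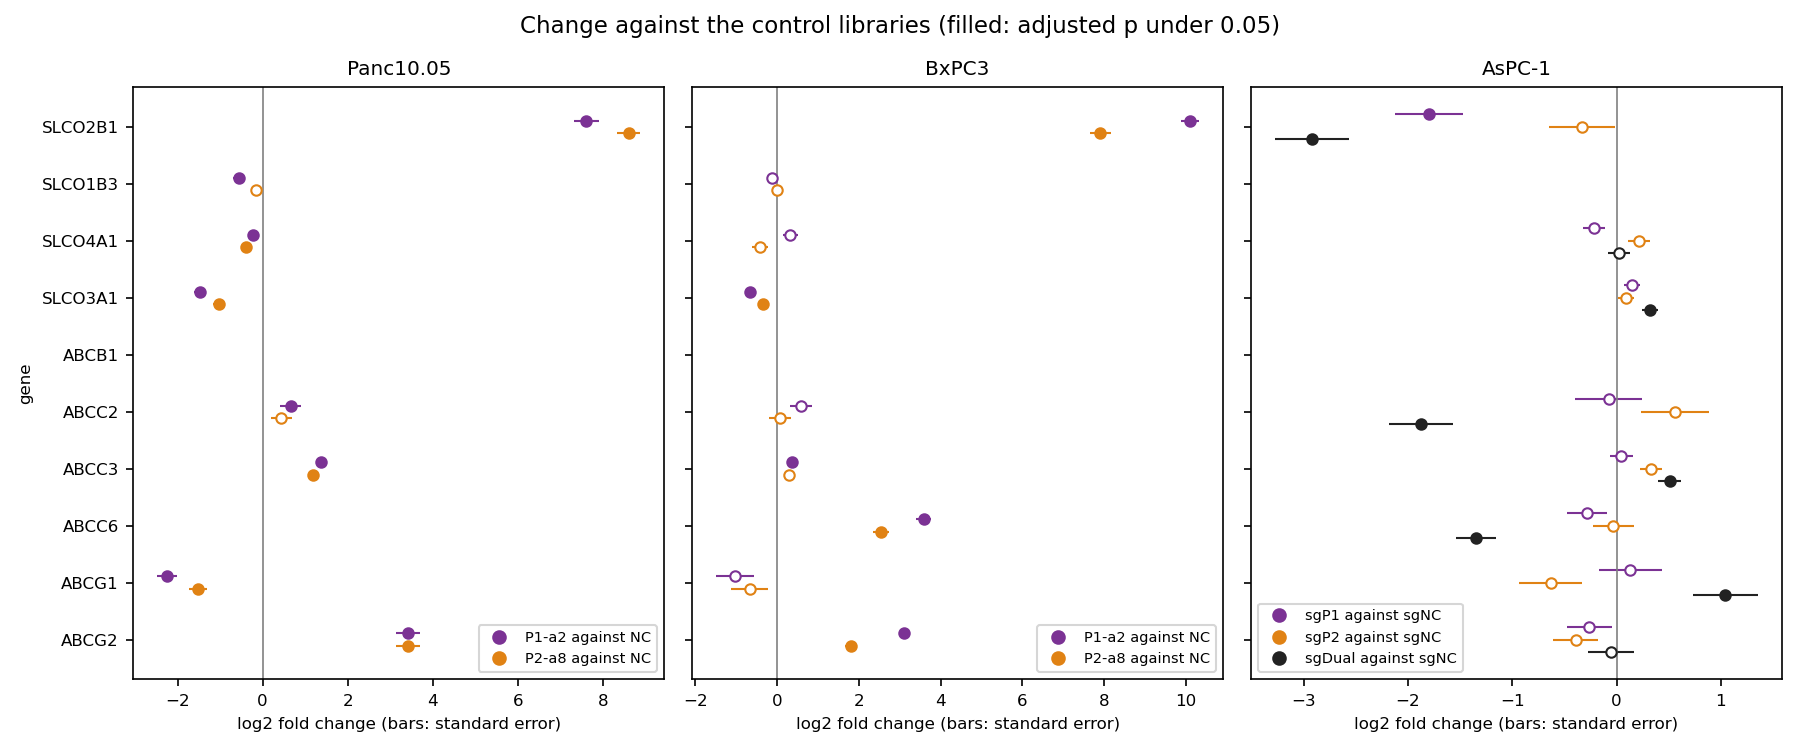
Log2 fold change of each gene against the control libraries of its line (horizontal axis, with its own range in each panel; bars are standard errors; filled points have an adjusted p under 0.05). ABCB1 is absent because it was not tested, SLCO1B3 is absent from AsPC-1 for the same reason, and ABCC6 is left out of Panc10.05, where NC held 0 counts. In each line the value farthest from 0 is one of SLCO2B1.

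SLCO2B1 (ENSG00000137491, chr11:75100563-75206549) encodes OATP2B1, an uptake carrier of steroid and bile acid conjugates that also takes up several oral drugs. In Panc10.05 it held 1 and 2 counts in the NC libraries (0.0240 and 0.0580 CPM), 7.81 and 8.81 CPM with P1-a2, and 16.7 and 16.5 CPM with P2-a8. In BxPC3 it held 3 and 1 counts with NC (0.112 and 0.0273 CPM), 68.1 and 79.3 CPM with P1-a2, and 16.4 and 15.6 CPM with P2-a8. In both lines, then, no induced library came near a control library, and the isoform with the higher level was P2-a8 in Panc10.05 and P1-a2 in BxPC3. The count ratio of P1-a2 to NC in Panc10.05 was 212 (95% interval 72.2 to 1030, counting error only), and that of P2-a8 was 422 (144 to 2049). In BxPC3 the ratios were 1177 (460 to 4323) for P1-a2 and 255 (99.3 to 937) for P2-a8. The intervals are wide because the controls held so few counts. Against NC all 4 differences passed, with adjusted p between 1.89e-27 and 3.55e-08.

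AsPC-1 is the line with SLCO2B1 at the start, at 2.72 and 3.72 CPM with sgNC. With sgDual it lay at 0.344 and 0.289 CPM (guide 2) and 0.507 and 0.545 CPM (guide 3), a fall to 0.132 of sgNC (log2 fold change -2.92, SE 0.35, adjusted p = 2.58e-05). With sgP1 it lay at 1.03 and 0.542 CPM (guide E) and 0.642 and 1.48 CPM (guide J), all below sgNC (log2 fold change -1.80, SE 0.33, adjusted p = 0.0341). With sgP2 it lay at 2.51 and 1.70 CPM (guide D) and 3.15 and 2.86 CPM (guide G), which overlap sgNC (log2 fold change -0.33, SE 0.32, adjusted p = 0.643). The sgP1 call did not hold when any 1 of the sgNC or sgP1E libraries was left out (adjusted p 0.0634 to 0.415) or when only sgP1 and sgNC were fitted (0.281). The direct comparison gave SLCO2B1 2.76-fold higher with sgP2 than with sgP1 (adjusted p = 0.0106), lost without guide G (0.110) or with only these groups fitted (0.0588). Over all 10 groups the order of mean levels was BxPC3 P1-a2 (73.7 CPM), Panc10.05 P2-a8 (16.6), BxPC3 P2-a8 (16.0), Panc10.05 P1-a2 (8.31), AsPC-1 sgNC (3.22), sgP2 (2.56), sgP1 (0.926) and sgDual (0.421), then BxPC3 NC (0.0694) and Panc10.05 NC (0.0410). In this order the P2-a8 groups of the 2 lines lay next to each other without overlapping, and sgNC with sgP2, sgP1 with sgDual, and the NC groups of the 2 lines overlapped.

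The other uptake carriers moved less and mostly downwards. SLCO3A1 (ENSG00000176463, chr15:91853695-92172435), an OATP of wide distribution known to carry prostaglandins, stood at 9.13 and 9.68 CPM in Panc10.05 NC, 3.31 and 3.48 with P1-a2, and 4.38 and 4.82 with P2-a8. It fell with both isoforms there (log2 fold changes -1.47 and -1.03, adjusted p = 2.31e-12 and 1.77e-08). In BxPC3 it stood at 52.2 and 51.3 CPM with NC, 35.1 and 30.1 with P1-a2, and 41.5 and 40.6 with P2-a8. The BxPC3 changes were -0.67 (adjusted p = 8.89e-05) and -0.33 (0.0270), and the second was lost when any 1 of its 4 libraries was left out (adjusted p 0.0525 to 0.118). In AsPC-1, SLCO3A1 was higher with sgDual, at 54.5 to 63.9 CPM against 49.6 and 45.9 with sgNC (log2 fold change 0.32, adjusted p = 0.00470, or 0.0673 without sgNC replicate 2). With sgP1 (48.8 to 56.4 CPM) and sgP2 (49.7 to 52.8 CPM) it did not pass (log2 fold changes 0.15 and 0.09, adjusted p = 0.623 and 0.610). It shares 538 exonic bases with AC116903.1 on the opposite strand, and the strand setting of the counting is not given in the sources used here.

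SLCO4A1 (ENSG00000101187, chr20:62642445-62685785), known as a thyroid hormone carrier, changed little. Its Panc10.05 values were 50.1 and 51.0 CPM with NC, 44.2 and 42.5 with P1-a2, and 41.3 and 35.2 with P2-a8. These are falls of 0.22 and 0.40 on the log2 scale (adjusted p = 0.00844 and 1.95e-05), the first lost without P1-a2 replicate 2 (0.0770). In BxPC3 neither isoform differed from NC past the threshold, with 3.16 and 3.99 CPM in NC, 4.61 and 4.41 with P1-a2 and 2.83 and 2.54 with P2-a8. The isoforms lay on either side of NC, so that P1-a2 was 1.68-fold higher than P2-a8 (adjusted p = 0.0140, lost without P1-a2 replicate 1, 0.0542, or P2-a8 replicate 2, 0.0645). In AsPC-1 it had 134 and 157 CPM with sgNC and 141 to 156 with sgDual, with a log2 fold change of 0.03 (SE 0.11). An antisense gene, SLCO4A1-AS1, shares 346 exonic bases with it and averaged 6.33 CPM with sgNC and 10.3 with sgDual.

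SLCO1B3 (ENSG00000111700, chr12:20810702-20916911) encodes OATP1B3, a liver uptake carrier of bile acids that several carcinomas also transcribe. It stood at 8.79 and 7.65 CPM in Panc10.05 NC, 5.50 and 5.70 with P1-a2, and 8.06 and 6.76 with P2-a8. Only P1-a2 differed from NC there (log2 fold change -0.56, SE 0.13, adjusted p = 0.000258), while P2-a8 gave -0.15 (0.365). In BxPC3 it stood at 13.1 to 16.2 CPM in all 6 libraries, with changes of -0.13 and -0.01 that did not pass. In AsPC-1 it held 0 to 5 counts in each of the 14 libraries and could not be tested. A readthrough gene on the same strand, SLCO1B3-SLCO1B7, shares 1930 exonic bases with it, so the division of reads between the 2 genes is uncertain. The readthrough gene was counted at 0.147 CPM in Panc10.05 NC and 0.460 in BxPC3 NC.

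Among the efflux carriers, ABCC6 and ABCG2 rose with both isoforms in BxPC3, and in Panc10.05 ABCG2 rose with both and ABCC6 with P1-a2. ABCC6 (ENSG00000091262, chr16:16148928-16223522) encodes a transporter of liver and kidney that releases ATP and whose loss causes pseudoxanthoma elasticum. It held 0 counts in both Panc10.05 NC libraries, 13 and 19 counts with P1-a2 and 2 and 3 counts with P2-a8. With a floor of 3 counts per library, it was at least 4.70-fold higher with P1-a2 than with NC (adjusted p = 1.38e-05). P2-a8 did not pass (adjusted p = 0.0603), and no fold is given for it because both groups were at or under the floor. In BxPC3 ABCC6 stood at 1.41 and 1.09 CPM with NC, 13.1 and 16.5 with P1-a2, and 6.72 and 7.72 with P2-a8, so that the 3 groups did not overlap. These were rises of 3.58 and 2.54 on the log2 scale (adjusted p = 2.17e-07 and 1.80e-05). In AsPC-1 it stood at 28.0 and 30.3 CPM with sgNC and 8.89 to 13.4 with sgDual, a fall to 0.394 of the control (log2 fold change -1.34, SE 0.19, adjusted p = 0.000155).

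ABCC6 has nearly identical copies on the same chromosome, and the counting of reads between them is uncertain. The pseudogene ABCC6P1 held 0 counts in all 4 NC libraries, 19 to 37 counts in the 8 induced libraries, 100 and 102 counts with sgNC and 18 to 26 with sgDual. ABCC6P2 held 1 to 4 counts in the NC libraries, 3 to 23 in the induced ones, 136 and 162 with sgNC and 69 to 105 with sgDual. ABCC6P1 was thus higher in every induced library and lower in every sgDual library than in the controls of its line, while ABCC6P2 overlapped NC with P1-a2 in Panc10.05. Whether reads of the copies belong to ABCC6 was not tested.

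ABCG2 (ENSG00000118777, chr4:88090264-88231322) encodes an apical exporter of drugs, urate and porphyrins. In Panc10.05 it stood at 0.312 and 0.261 CPM with NC, 2.95 and 3.26 with P1-a2, and 3.44 and 2.79 with P2-a8. Both isoforms gave nearly the same level there, 10.7-fold and 10.8-fold above NC (adjusted p = 6.92e-14 and 2.35e-13). In BxPC3 it stood at 2.68 and 3.31 CPM with NC, 25.4 and 26.5 with P1-a2, and 9.87 and 11.1 with P2-a8. The BxPC3 rises were 8.58-fold and 3.47-fold (adjusted p = 4.32e-08 and 1.39e-05). In AsPC-1, where ABCG2 was most abundant, sgDual left it at 128 to 176 CPM beside 145 and 178 with sgNC (log2 fold change -0.05, SE 0.22, adjusted p = 0.885). ABCG2 therefore passed in both inductions of both lines and in none of the 3 repressions.

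ABCC3 (ENSG00000108846, chr17:50634777-50692252), a basolateral exporter of glucuronides and bile acids, rose with HNF4α in Panc10.05 and also rose when HNF4A was lowered in AsPC-1. In Panc10.05 it stood at 19.7 and 18.6 CPM with NC, 49.5 and 49.7 with P1-a2, and 43.6 and 44.2 with P2-a8, which are 2.58-fold and 2.29-fold rises (adjusted p = 1.33e-19 and 6.45e-17). In BxPC3 it stood at 53.0 and 57.3 CPM with NC, 63.2 and 79.6 with P1-a2, and 64.3 and 70.1 with P2-a8. The P1-a2 change of 0.37 on the log2 scale passed (adjusted p = 0.0203) but not without P1-a2 replicate 2 (0.126) or either NC library (0.0551 and 0.135), and the P2-a8 change of 0.28 did not pass (0.153, or 0.0442 with only these groups fitted). In AsPC-1 it stood at 204 and 245 CPM with sgNC and at 301 to 340 with sgDual (log2 fold change 0.51, SE 0.11, adjusted p = 0.00233, or 0.0742 without sgNC replicate 1). The sgP2 libraries, at 270 to 307 CPM, also lay above both sgNC libraries, with a log2 fold change of 0.33 that did not pass (adjusted p = 0.113).

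ABCC2 (ENSG00000023839, chr10:99782640-99852594), the apical exporter of conjugated bilirubin and drugs, was low in the induced lines and high in AsPC-1. In AsPC-1 it stood at 254 and 221 CPM with sgNC and at 88.3 and 66.6 (guide 2) and 58.8 and 45.0 CPM (guide 3) with sgDual. This is a fall to 0.273 of sgNC (log2 fold change -1.88, SE 0.31, adjusted p = 0.000703), and no sgDual library overlapped the control. The sgP1 libraries ran from 132 to 316 CPM and the sgP2 libraries from 281 to 435, and neither group differed from sgNC past the threshold (log2 fold changes -0.08 and 0.56). In Panc10.05 ABCC2 stood at 1.95 and 1.45 CPM with NC, 2.44 and 2.96 with P1-a2, and 3.01 and 1.52 with P2-a8. The P1-a2 rise of 0.66 on the log2 scale passed with edgeR (adjusted p = 0.0209) but not with DESeq2 (0.0766), nor without P1-a2 replicate 2 (0.141) or NC replicate 2 (0.161). P2-a8 did not pass there (0.160), but did without P2-a8 replicate 2 (0.00472). In BxPC3 it stood between 1.47 and 2.81 CPM in all 6 libraries, and neither isoform passed, although P1-a2 did without P1-a2 replicate 1 (0.0467).

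ABCG1 (ENSG00000160179, chr21:42199689-42297244), which passes cholesterol to lipoprotein particles, fell with both isoforms in Panc10.05 and rose with sgDual in AsPC-1. In Panc10.05 it stood at 3.72 and 4.26 CPM with NC, 0.873 and 0.804 with P1-a2, and 1.24 and 1.58 with P2-a8, falls to 0.211 and 0.351 of NC (adjusted p = 1.24e-11 and 7.57e-08). In BxPC3 it stood at 1.75 and 2.43 CPM with NC, 0.596 and 1.43 with P1-a2, and 0.801 and 1.87 with P2-a8. Neither BxPC3 change passed (log2 fold changes -1.03 and -0.67, SE 0.46 and 0.45), and the 2 libraries of each induced group lay more than 2-fold apart. The P1-a2 change had an adjusted p of 0.124, which was 0.0359 without P1-a2 replicate 2 and 0.0491 with only these groups fitted. In AsPC-1 it stood at 20.5 and 25.8 CPM with sgNC and 44.5 to 52.8 with sgDual, a 2.06-fold rise (adjusted p = 0.0202). Although no library overlapped, that call was lost without either sgNC library (0.0589 and 0.185) or without guide 2 (0.0762). With sgP1 it stood at 20.2 to 32.7 CPM and with sgP2 at 9.05 to 22.4, and neither passed (log2 fold changes 0.13 and -0.63). Guide G of sgP2 alone gave a fall of 1.25 on the log2 scale (adjusted p = 0.000434).

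ABCB1 (ENSG00000085563, chr7:87503633-87713323), the P-glycoprotein gene and the best known multidrug exporter, held 0 to 7 counts in every one of the 26 libraries. Its highest group mean was 0.175 CPM, in AsPC-1 sgNC. It was below the filter in all 3 lines and was not tested. By count ratio it was higher with P1-a2 than with NC in BxPC3 (5.53, 95% interval 1.23 to 50.9) and higher with sgNC than with sgDual in AsPC-1 (6.13, 1.82 to 26.4). These intervals cover counting error only and rest on 7 counts or fewer per library.

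The direct comparison of the isoforms gave different orders in the 2 lines. In BxPC3, at equal dose, P1-a2 was above P2-a8 for SLCO2B1 (4.60-fold, adjusted p = 7.69e-07), ABCG2 (2.47-fold, 3.21e-05), ABCC6 (2.06-fold, 0.000721) and SLCO4A1, and below it for SLCO3A1 (-0.33, 0.0125, lost without P2-a8 replicate 1, 0.0668, or P1-a2 replicate 2, 0.116). These are 4 higher and 1 lower of 9, where 22.5% of all genes passed (11.6% higher, 10.8% lower). HNF4A RNA itself did not differ past the threshold between the 2 BxPC3 groups (log2 fold change -0.33, SE 0.17, adjusted p = 0.217). In Panc10.05, P1-a2 was below P2-a8 for SLCO2B1 (-0.997, 5.38e-10), as was HNF4A (-1.66, 5.02e-17). ABCC6 was higher with P1-a2 there, by a count ratio of 6.20 (95% interval 2.40 to 20.4), while ABCG2 did not pass (-0.01, SE 0.19, adjusted p = 0.970). In all, 3 were higher and 4 lower of 9 with P1-a2 in Panc10.05, where 46.9% of all genes passed (22.2% higher, 24.7% lower). With DESeq2 SLCO4A1, SLCO3A1, ABCC3, ABCC6 and ABCG1 no longer passed there (adjusted p 0.0513 to 0.0979). The 7 calls became 4 without P1-a2 replicate 1, 3 without P1-a2 replicate 2 or P2-a8 replicate 2, and 5 without P2-a8 replicate 1, and SLCO2B1 passed in each of these fits.

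**Figure D3:**
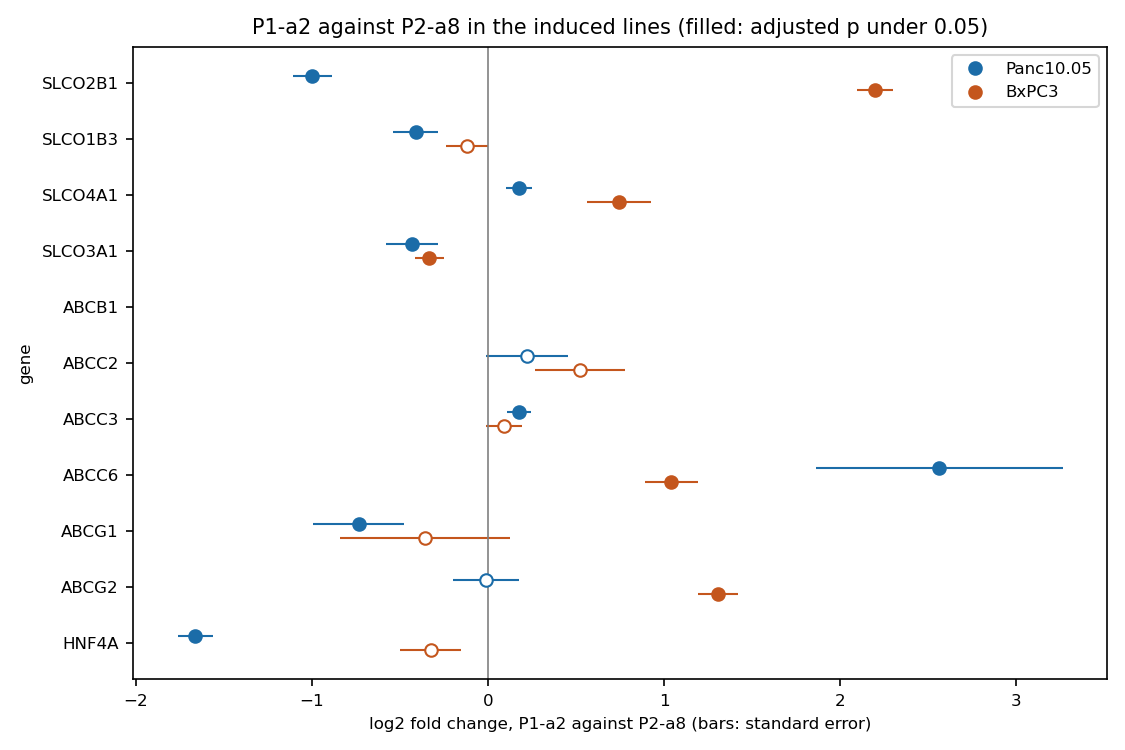
Log2 fold change of P1-a2 against P2-a8 in Panc10.05 and BxPC3 for the tested transporter genes and HNF4A (bars are standard errors; filled points have an adjusted p under 0.05). SLCO2B1 is at -0.997 in Panc10.05 and 2.20 in BxPC3, and ABCG2 is at -0.01 and 1.31. The Panc10.05 value of ABCC6 rests on 2 and 3 counts with P2-a8.

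The difference between the lines was tested as an interaction over the 12 induced and control libraries. For P1-a2 against P2-a8 it passed for 3 of 9 genes, where 22.3% of 19372 genes passed (8.81% higher, 13.5% lower): SLCO2B1 (-3.19, Panc10.05 minus BxPC3 on the log2 scale, SE 0.15, adjusted p = 1.09e-12), ABCG2 (-1.31, SE 0.20, 4.83e-05) and SLCO4A1 (-0.55, SE 0.17, 0.0227). For P1-a2 against NC it passed for 3 of 9, where 36.4% passed (16.3% higher, 20.1% lower), and for P2-a8 against NC for 3 of 9, where 23.5% passed (11.5% higher, 11.9% lower). ABCC3 rose more in Panc10.05 than in BxPC3 with both isoforms (1.01 and 0.91), and SLCO3A1 fell more there with both (-0.79 and -0.70). The responses of SLCO2B1 to NC did not differ past the threshold between the lines (-2.51, SE 1.14, adjusted p = 0.0967 for P1-a2, and 0.68, SE 0.95, 0.707 for P2-a8). These last errors are large because both controls held 3 counts or fewer.

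In AsPC-1 the 2 guides of a target could be compared with each other. For sgDual, 0 of 8 genes differed between guides 2 and 3 with edgeR, 1 had an unadjusted p under 0.05, and 0.883% of all genes passed (0.418% higher, 0.465% lower). Each sgDual guide on its own lowered SLCO2B1 (-3.33 and -2.61), ABCC2 (-1.61 and -2.19) and ABCC6 (-1.17 and -1.54) and raised ABCC3 (0.57 and 0.45), ABCG1 (1.11 and 0.98) and SLCO3A1 (0.36 and 0.28), all with an adjusted p under 0.05. For sgP1, SLCO2B1 was lower with each guide (-1.97, adjusted p = 0.00259, and -1.61, 0.02002), whereas ABCC6 was lower with guide J alone (-0.61, 0.0216, against -0.02 with guide E). The 2 sgP1 guides differed in ABCC6 by 0.59 (adjusted p = 0.00852), 1 of 8 genes where 14.5% of all passed (7.82% higher, 6.7% lower). For sgP2, ABCG1 was lower with guide G (9.05 and 10.4 CPM) than with guide D (17.9 and 22.4 CPM), by 1.05 (adjusted p = 0.00370), 1 of 8 genes where 1.69% of all passed (0.647% higher, 1.05% lower). These guide tests take their error from libraries that share a guide.

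**Figure D4:**
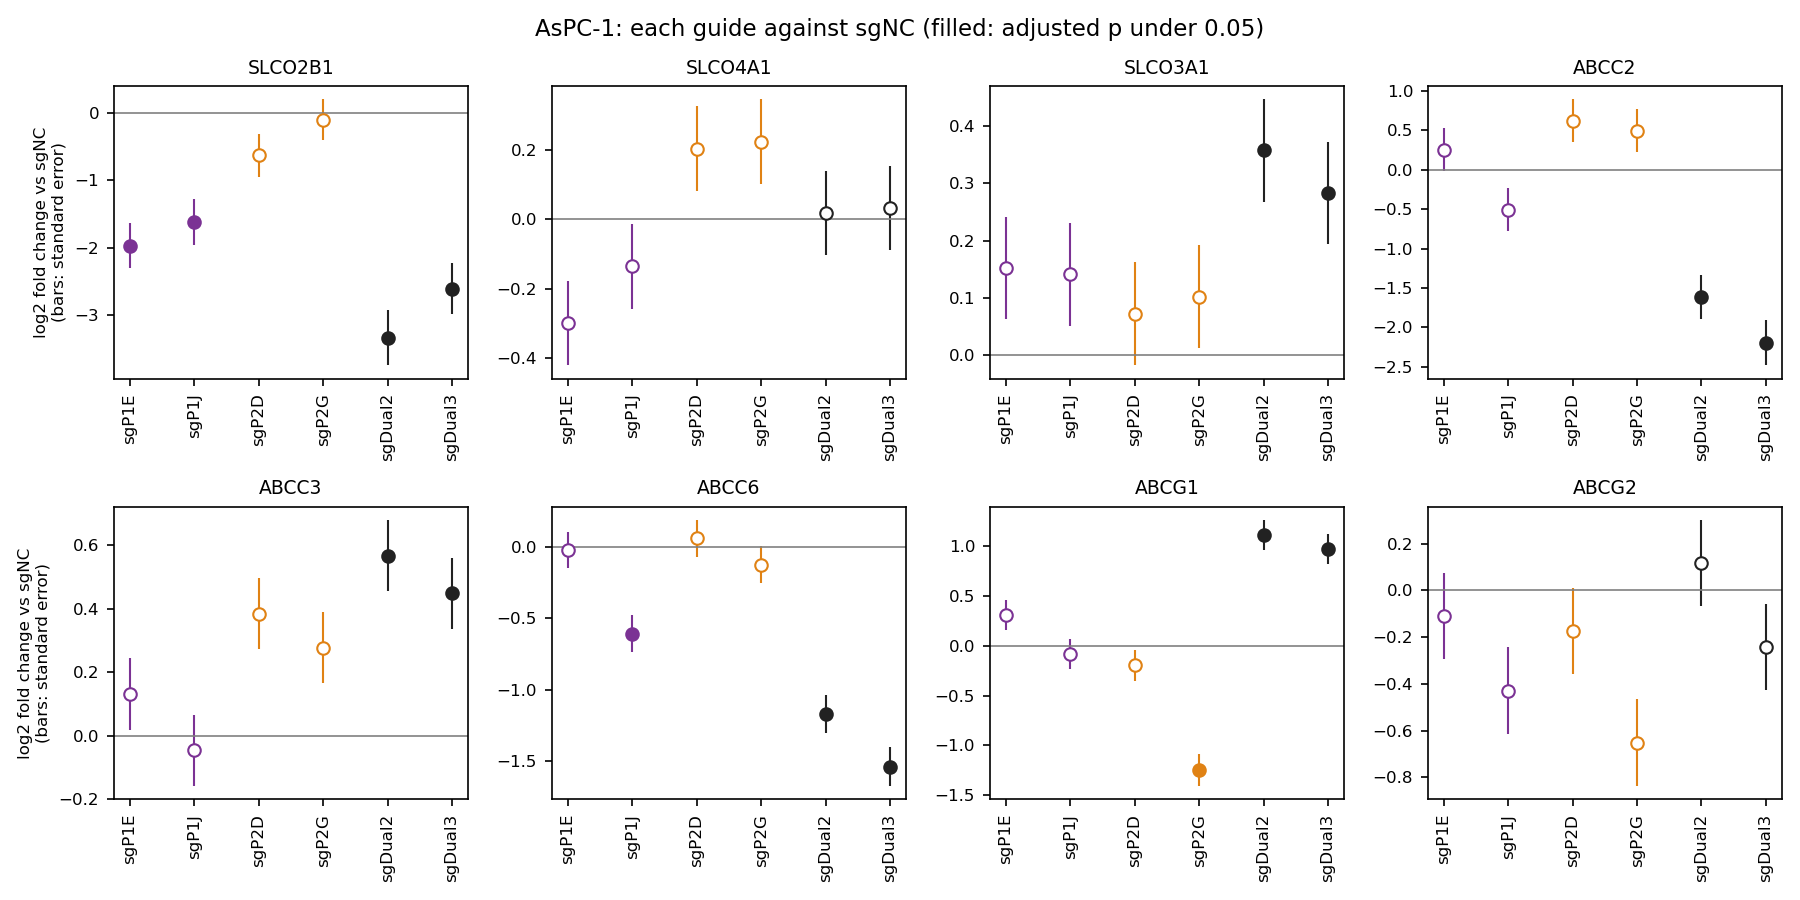
Log2 fold change of each of the 6 AsPC-1 guides against sgNC for the 8 tested transporter genes (bars are standard errors; filled points have an adjusted p under 0.05; the vertical range differs between panels). Both sgDual guides lie below 0 for SLCO2B1, ABCC2 and ABCC6 and above 0 for ABCC3, ABCG1 and SLCO3A1, and the sgP1 guides lie apart for ABCC6.

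Between repressions, sgDual against sgP2 gave 2 higher and 3 lower of 8, where 46.4% of all genes passed (22.8% higher, 23.5% lower), and sgDual against sgP1 gave 4 higher and 3 lower, where 38.3% passed (18.6% higher, 19.7% lower). SLCO2B1, ABCC2 and ABCC6 were the 3 lower genes in both, at -2.59, -2.43 and -1.31 against sgP2 and -1.13, -1.80 and -1.06 against sgP1. The SLCO2B1 difference from sgP1 was lost without sgP1J replicate 2 (adjusted p = 0.0527), without sgDual2 replicate 2 (0.0504) without guide sgP1J (0.0544) and without guide sgDual2 (0.173). For sgP2 against sgP1, 2 of 8 were higher, SLCO2B1 and SLCO4A1 (0.43, adjusted p = 0.0133), where 4.3% of all genes passed (2.17% higher, 2.13% lower). SLCO4A1 lost that call when either sgP2 guide was left out (0.0602 and 0.0618).

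The other members of the 2 families moved in both directions. Of 29 other ABC genes tested in Panc10.05, 7 were higher and 14 lower with P1-a2 and 3 higher and 10 lower with P2-a8, where 62% and 46.2% of all genes passed. Of 31 tested in BxPC3, 9 were higher and 9 lower with P1-a2 and 2 and 2 with P2-a8, where 32% and 6.99% of all genes passed. Their median log2 fold changes were -0.12 and -0.15 in Panc10.05 and 0.07 and 0.01 in BxPC3, and 0.13 with sgDual. ABCA1, which loads cholesterol onto apolipoprotein, was lower in Panc10.05 with P1-a2 and P2-a8 (87.0 CPM with NC, 17.0 and 35.7), as ABCG1 was. ABCA6, a lipid-related A-subfamily gene, was higher with P1-a2 in Panc10.05 (0.181 to 2.62 CPM), lower with P2-a8 there (0.0461 CPM, adjusted p = 0.0445) and also higher with sgDual in AsPC-1 (0.160 to 7.09 CPM). In AsPC-1, 12 of 31 other ABC genes were higher and 9 lower with sgDual, where 35.6% of all genes passed, and the sterol exporter gene ABCG5 was lower with sgP2 (1.04 to 0.191 CPM) and sgDual (0.286 CPM). Of the 8 other SLCO genes, 2 were tested in Panc10.05, 4 in BxPC3 and 0 in AsPC-1. SLCO2A1, the prostaglandin transporter, was higher with P2-a8 in Panc10.05 (0.234 to 0.718 CPM, log2 fold change 1.56, adjusted p = 0.00521) and with P1-a2 in BxPC3 (0.709 to 4.82 CPM, 2.79, 1.08e-05).

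Carriers outside the 2 families and enzymes that prepare their substrates were counted the same way, and the all-gene shares beside them are 31.5% higher and 30.5% lower with P1-a2 and 23.7% and 22.5% with P2-a8 in Panc10.05, 17.1% and 14.9% with P1-a2 and 4.3% and 2.69% with P2-a8 in BxPC3, and 17.8% in each direction with sgDual. SLC15A1, the proton-coupled peptide and beta-lactam carrier of the gut, averaged 2.20 CPM in Panc10.05 NC, 27.3 with P1-a2 and 43.0 with P2-a8, and in BxPC3 0.252, 39.1 and 7.33 CPM. Its higher isoform was P2-a8 in Panc10.05 (log2 fold change of P1-a2 against P2-a8 -0.65) and P1-a2 in BxPC3 (2.42), the order also seen for SLCO2B1. It fell with sgDual in AsPC-1 (log2 fold change -1.21, adjusted p = 3.88e-06). Of the list of other drug and bile acid carriers, 3 of 13 were higher and 5 lower with P1-a2 in Panc10.05, 5 higher and 1 lower with P2-a8, and in BxPC3 8 of 14 were higher and 1 lower with P1-a2 and 3 higher and 1 lower with P2-a8. The organic cation carrier gene SLC22A3 in AsPC-1 rose from 130 CPM with sgNC to 193 with sgP2 and fell to 40.3 with sgDual. Of conjugating enzymes, which make many substrates of the ABCC exporters, 7 of 12 were higher and 1 lower with P1-a2 in Panc10.05, 8 higher and 0 lower with P2-a8, and 7 of 16 higher and 2 lower with P1-a2 in BxPC3. The sulfotransferase gene SULT1C2 rose in BxPC3 from 0.298 CPM to 7.23 with P1-a2 and 3.05 with P2-a8. With P2-a8 in BxPC3, 3 of 16 enzymes were higher and 1 lower. With sgDual, 3 of 14 carriers were higher and 5 lower, and 2 of 13 enzymes were higher and 2 lower. With sgP2, 1 of 14 carriers, SLC22A3, was higher and 0 of 13 enzymes passed with edgeR (4 had an unadjusted p under 0.05). Of all genes, 1.66% were higher and 1.76% lower with sgP2. The enzymes had a median log2 fold change of 0.64 and 0.69 in Panc10.05, 0.50 and 0.26 in BxPC3 and -0.18 with sgDual, the carriers 0.07 and 0.23, 0.39 and 0.18, and -0.16.

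Nuclear receptors and other factors known to control transporter genes were counted as a list of 16, beside the same all-gene shares (62% and 46.2% passed in Panc10.05, 32% and 6.99% in BxPC3, 35.6% with sgDual). In Panc10.05, 6 of 11 tested were higher and 5 lower with P1-a2, and 4 were higher and 4 lower with P2-a8. In BxPC3, 4 of 15 were higher and 2 lower with P1-a2, and 3 were higher and 0 lower with P2-a8. NR1I3, the xenobiotic receptor CAR, averaged 0.0290 CPM in Panc10.05 NC, 9.80 with P1-a2 and 0.868 with P2-a8, and in BxPC3 it averaged 0.0508 CPM with NC, 3.66 with P1-a2 and 0.0429 with P2-a8. It was higher with P1-a2 than with P2-a8 in both lines (a log2 fold change of 3.49, adjusted p = 1.22e-18, in Panc10.05, and a count ratio of 82.8, 95% interval 28.0 to 404, adjusted p = 2.22e-05, in BxPC3). NR1I2, the receptor PXR that responds to drugs, was higher with both isoforms in BxPC3 (0.249 CPM with NC, 15.3 with P1-a2 and 9.73 with P2-a8) and lower with sgDual in AsPC-1 (87.2 to 15.5 CPM). In AsPC-1, 5 of 15 were higher and 3 lower with sgDual and 1 lower with sgP2, where 3.42% of all genes passed. The list's median log2 fold change was 0.22 and -0.03 in Panc10.05, 0.04 and 0.10 in BxPC3 and 0.00 with sgDual. With sgP1, whose group pools guides E and J, 0 of the 31 other ABC genes, 15 regulators, 14 other carriers and 13 enzymes passed with edgeR, where 0.265% of all genes passed. In the same order, 5, 3, 4 and 1 of them had an unadjusted p under 0.05.

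Across libraries, levels were set relative to the control mean of their line on a log2 scale, and each gene of the set was compared with all 14501 genes that passed in every line. The values are descriptions, since libraries of a line share their controls and the induced and sgDual groups differ from their controls in many genes. SLCO2B1 went most closely with CLRN3 (Pearson's r = 0.979, n = 26 libraries) and USH1C (0.977), ABCC6 with MOGAT3 (0.976) and DENND5B (0.974), and ABCG2 with VIL1 and RASSF6 (both 0.968). ABCC2 went with AK4 (0.948) and LINC02535 (0.947), ABCC3 with TFPI (0.970) and JMJD1C (0.954), and SLCO3A1 with CIBAR1 (0.978) and TMEM268 (0.966). ABCG1 (LXN, 0.924, and IFNGR2, 0.921) and SLCO4A1 (MB21D2, 0.815, and LINC00460, 0.792) had looser companions, and SLCO1B3 was compared over 12 libraries (ERMARD, 0.972, and ZNF341, 0.962). Within the set, SLCO2B1, ABCC6 and ABCG2 went together (r = 0.928 for SLCO2B1 with ABCC6, 0.923 with ABCG2 and 0.856 for ABCC6 with ABCG2), and SLCO3A1 went opposite to them (-0.858, -0.825 and -0.922). The coefficients pool the lines and need not hold within each. In AsPC-1, mean SLCO2B1 (3.22 CPM with sgNC, 0.421 with sgDual) and ABCC6 (29.1 and 11.5) fell, while ABCG2 (162 and 156) hardly moved. With HNF4A the coefficients were 0.90 for SLCO2B1, 0.860 for ABCG2, 0.838 for ABCC6, 0.653 for ABCC2, 0.532 for ABCC3, -0.438 for SLCO4A1, -0.528 for SLCO1B3 (12 libraries), -0.817 for ABCG1 and -0.906 for SLCO3A1.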

How the data were processed

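RNA was measured in 26 libraries. The authors deposited 1 table per cell line of whole-number read counts per Ensembl gene, with no normalization. The submitters' processing notes name cutadapt 1.16, STAR 2.7.9a, featureCounts 1.6.3, DESeq2 1.36.0 and GRCh38. The annotation release and the strand setting of the counting are not given in the sources used here. Symbols were matched for at least 99.88% of identifiers of each table, and positions and exon lengths are those of GENCODE v29.

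Low genes were removed per table with filterByExpr (edgeR 4.0.16, R 4.3.3); the rest were scaled by TMM and tested with the quasi-likelihood F test (robust fit) on all libraries of that table, with Benjamini-Hochberg adjustment over all genes. Interactions used the 12 libraries of Panc10.05 and BxPC3, and guide contrasts the 14 AsPC-1 libraries in 7 groups. CPM uses TMM-scaled totals. A library with 3 counts or fewer was taken as at the floor; against groups at 0 counts a fold is a bound, and against 1 to 3 counts an exact 95% interval of the count ratio is given, which covers counting error only. Alternatives were DESeq2 1.42.0, other scalings, no filter, a replicate block, only the groups compared, a fold limit (absolute log2 of 1), and leaving out each library or guide. The code was tested on simulated data with changed genes of known size. Chi-square statistics between the 2 replicates of each construct or guide, over their degrees of freedom, were 5.53 to 26.9. Neither library of a pair was thus a copy of the other, and libraries of different groups are not covered. The highest values were those of guides sgP1E (20.3) and sgP1J (26.9).

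The transporter genes and the lists were chosen with earlier results of these data known. Named are all 10 genes, HNF4A, up to 3 genes per list and comparison with the largest change past the threshold, and the 2 genes most like each transporter; the readthrough, antisense and pseudogene entries were added for overlap.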

Additional observations from a re-analysis of the deposited data

Results flagged for a closer look

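The 11 results here were picked out because a test of the difference itself passed, either between the responses of Panc10.05 and BxPC3 or between 2 guides of 1 target (edgeR's quasi-likelihood test, adjusted over all genes). For P1-a2 against P2-a8, Panc10.05 minus BxPC3 was -3.19 on the log2 scale for SLCO2B1, -1.31 for ABCG2 and -0.55 for SLCO4A1. For P1-a2 against NC it was 1.01 for ABCC3, -0.79 for SLCO3A1 and -0.52 for SLCO4A1. For P2-a8 against NC it was 1.63 for ABCG2, 0.91 for ABCC3 and -0.70 for SLCO3A1. In these 9 differences dose, control construct and sequencing project change with the line and cannot be told apart from it. Between guides in AsPC-1, ABCC6 was higher with sgP1E than with sgP1J by 0.59, and ABCG1 was higher with sgP2D than with sgP2G by 1.05. The 24 checks for an outlying library each took 4 libraries, which only the sgP1, sgP2 and sgDual groups hold. In none of them did 1 library stand apart from the other 3. Groups of 2 libraries could not be checked in this way.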

How the results depend on the processing

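Over 153 single-gene results and 1613 alternatives, 1463 kept their side of the threshold, 107 lost it, 43 gained it and 0 reversed. Counts of transporter genes past the threshold changed too. The changes given here are not a complete list, and their cause was not tested. With DESeq2, P1-a2 against P2-a8 in Panc10.05 went from 7 to 2 and sgP2 against sgP1 from 2 to 4. With only the groups compared, sgP1 against sgNC went from 1 to 0 and sgP2 against sgP1 from 2 to 0. Where a change of 1 or more on the log2 scale was also required, P1-a2 against P2-a8 went from 7 to 1 in Panc10.05 and from 5 to 3 in BxPC3. P1-a2 against NC then went from 9 to 6 in Panc10.05 (SLCO1B3, SLCO4A1 and ABCC2 lost) and from 5 to 3 in BxPC3. P2-a8 against NC went from 6 to 5 in Panc10.05 and from 4 to 3 in BxPC3. The same limit took sgDual against sgNC from 6 to 4 (SLCO3A1 and ABCC3 lost). It took sgP2 against sgP1 from 2 to 1 and sgDual against sgP1 from 7 to 3. With the replicate block, sgP2 against sgNC went from 0 to 1 (ABCC3), and the guide contrasts of sgP1, sgP2 and sgDual from 1, 1 and 0 to 4, 2 and 3; without the filter they went to 4, 2 and 2. With the block ABCG1 also passed for P1-a2 against NC in BxPC3 (-1.07, adjusted p = 0.00514) and ABCC3 for P2-a8 (0.29, 0.00204). The labels do not say what a number marks. The correlation of deviations of same-numbered libraries ran from -0.0119 to 0.00733 in Panc10.05, and was positive for every pair of groups in BxPC3 (0.0727 to 0.131) and AsPC-1 (0.0772 to 0.339), a hint from the data and not from the design. Counts over all genes moved by over 1.5 times with the replicate block for P2-a8 against NC (1232 to 2886) and P1-a2 against P2-a8 (3963 to 5992) in BxPC3, sgP1 (45 to 127), sgP2 (581 to 972) and sgP2 against sgP1 (731 to 1204). For these 3 AsPC-1 contrasts DESeq2 gave 248, 1148 and 1272, and only the groups compared 7, 1103 and 189. Without the filter sgP1 gave 81 and P2-a8 against NC in BxPC3 1982. The counts that follow, with a guide or a library left out, are again of transporter genes past the threshold. Leaving out guide sgP2D gave 1 for sgP2 against sgNC. For sgP2 against sgP1, leaving out sgP1E gave 5 and sgP2G 0. For sgDual against sgP1, leaving out sgP1J gave 4 and sgDual2 3. Leaving out 1 library gave 3 to 5 for P1-a2 against P2-a8 in Panc10.05, 0 to 1 for sgP1 against sgNC and 4 to 7 for sgDual against sgP1. With total-count scaling the share of higher calls among all genes moved to 47.9% (37.8% with TMM) for sgP1 and to 59.1% (48.5%) for sgP2. Low counts limit ABCB1 in all lines, SLCO1B3 in AsPC-1, and the NC groups of SLCO2B1 in Panc10.05 and BxPC3 and of ABCC6 in Panc10.05. The part of sequencing depth in this was not tested.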
